A study of Mus musculus with 7 samples.

Results

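The tumour necrosis factor (TNF) superfamily was followed through the cell classes of the mouse pancreas. Its members were taken by symbol: Tnf itself and each gene whose symbol starts with Tnfsf or Tnfrsf and a digit. That rule found 33 of the 33864 genes listed in the count tables, namely 12 ligands, 20 receptors and 1 antisense RNA (Tnfsf13os), and all 33 were listed in all 3 tables. The names describe sequence families, so 14 relatives with other symbols (Fas, Fasl, Ltb, Cd40 and others) were kept apart as a second list.

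Pancreatic cells of 7 C57BL/6 mice aged 2 months were profiled by single-cell RNA sequencing, with 1 library per mouse. The 2 WT mice and the 3 i4F mice were given doxycycline in the drinking water at 1 mg/ml for 7 days. The i4F mice (genotype i4F-B on the labels) carry a doxycycline-inducible cassette of the reprogramming factors Oct4, Sox2, Klf4 and c-Myc with a reverse tetracycline transactivator (rtTA), which is not restricted to a pancreatic cell type. The 2 caerulein mice were WT mice that received this secretagogue, which causes acute pancreatitis, at 100 µg/kg in 7 injections a day on 2 days, and doxycycline is not among their labelled treatments, so that the effects of caerulein and of lacking doxycycline cannot be told apart. WT 1 and the i4F mice belong to one series of library names, and WT 2 and the caerulein mice to the other, so that 1 WT mouse lies in each and no i4F mouse shares a series with a caerulein mouse. A fit with the series as a term therefore rests on the difference between those 2 WT mice.

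TNF superfamily ligands are mostly trimeric membrane proteins that can be shed, and their receptors recruit TRAF adaptors or death-domain proteins, which lead to NF-κB activation or to cell death. In the pancreas, macrophages are a known source of TNF in pancreatitis, and the receptor of TWEAK (Tnfsf12), Fn14 (Tnfrsf12a), is known to be induced in injured epithelium. Decoy receptors such as osteoprotegerin (Tnfrsf11b) and, in the mouse, Tnfrsf22 and Tnfrsf23 bind ligand without passing on its signal.

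The libraries held 4327 to 15138 cells and 15469018 to 64784216 UMIs (unique molecular identifiers, each standing for 1 captured mRNA molecule). rtTA gave 722 to 2571 UMIs in the i4F libraries and 1 to 16 in the others. The library labelled i4F 3 stood apart: it had the fewest UMIs per cell (median 1248.5, against 1986 to 4247 in the others), 3 UMIs of Pou5f1 (Oct4) and 0 of Sox2 against 154 and 315 of Pou5f1 and 15 and 40 of Sox2 in i4F 1 and i4F 2, and 183 macrophages against 2921 and 2735. The WT and caerulein libraries had 3 to 32 UMIs of Pou5f1 and 0 or 1 of Sox2, so that i4F 3 lay in their range. Counts of members called are therefore given with and without it. Pairs of libraries shared 3 to 39 cell barcodes. Values are CPM, the UMIs of a gene counted per 1e6 UMIs of a cell class in 1 mouse, and classes are the clusters named by the authors, which were made separately for each condition. Of the 24 acinar markers 6 were listed, and their summed level was 43915 and 48773 CPM in WT acinar cells, 26907 CPM in those of i4F 3 and 5457 to 8479 CPM in those of the caerulein mice, i4F 1 and i4F 2. The ductal, stellate and endothelial classes held all their listed markers in each mouse. The i4F acinar cells of i4F 1 and i4F 2 came mostly from cluster Acinar_2 (583 and 746 cells), whose leading genes include Krt13 and Sprr2b and hold no acinar marker, and those of i4F 3 from Acinar_1 (2071 cells).

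The promoters of 5 members called higher in i4F stellate cells (below) are shown because these genes were called in the same direction in one cell class. The sequences are the 250 bases before the RefSeq start site, build GRCm38.p6, written 5′ to 3′ on the gene's strand (minus in each case), and capitals mark a TATA box (TATAAA on either strand). Tnfrsf10b, the other member of that group, is named only.
Tnf, chr17:35202008-35202257: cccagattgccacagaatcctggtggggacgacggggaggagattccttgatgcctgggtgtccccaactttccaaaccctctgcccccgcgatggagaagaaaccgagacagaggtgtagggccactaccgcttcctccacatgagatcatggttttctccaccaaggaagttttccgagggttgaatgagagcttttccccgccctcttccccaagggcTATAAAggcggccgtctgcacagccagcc
Tnfrsf12a, chr17:23677450-23677699: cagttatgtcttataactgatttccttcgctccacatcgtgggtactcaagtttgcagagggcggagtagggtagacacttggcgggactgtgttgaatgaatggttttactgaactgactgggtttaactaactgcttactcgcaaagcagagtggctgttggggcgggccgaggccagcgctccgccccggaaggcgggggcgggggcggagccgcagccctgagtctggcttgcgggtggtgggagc
Tnfrsf1b, chr4:145246871-145247120: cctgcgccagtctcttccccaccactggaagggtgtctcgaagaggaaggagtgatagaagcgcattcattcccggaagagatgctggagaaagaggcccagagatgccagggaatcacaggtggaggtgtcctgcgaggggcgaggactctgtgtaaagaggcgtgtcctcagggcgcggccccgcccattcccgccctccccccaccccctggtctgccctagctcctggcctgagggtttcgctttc
Tnfrsf23, chr7:143685876-143686125: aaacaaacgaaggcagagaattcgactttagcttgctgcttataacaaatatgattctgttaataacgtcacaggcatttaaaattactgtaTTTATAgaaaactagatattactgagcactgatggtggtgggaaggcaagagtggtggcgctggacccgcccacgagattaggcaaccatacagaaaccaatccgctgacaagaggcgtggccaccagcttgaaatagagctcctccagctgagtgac
Tnfsf8, chr4:63861285-63861534: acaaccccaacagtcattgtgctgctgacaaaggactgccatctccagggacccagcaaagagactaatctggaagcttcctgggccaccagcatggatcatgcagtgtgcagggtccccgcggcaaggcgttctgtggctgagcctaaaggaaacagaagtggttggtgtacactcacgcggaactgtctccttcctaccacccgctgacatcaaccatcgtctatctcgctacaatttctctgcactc
The Tnf promoter held the TATA box 29 bases before its start site, and Tnfrsf23 held one on the opposite strand at 158 bases. Both strands were also searched for the NF-kB consensus and for the AP-1 motif TGANTCA, and none of these 5 windows held either. Over 32851 promoter windows of the same length, 12.4% held TATAAA, 3.9% the NF-kB consensus and 6.75% TGANTCA. Of the 25 members with a window, 5 held TATAAA, 2 the NF-kB consensus (Tnfrsf8 and Tnfrsf9) and 5 TGANTCA, where both NF-kB matches of Tnfrsf9 overlap each other. A match is a run of letters and not a site shown to be bound.

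Tnf, the founding ligand and a main inflammatory cytokine, had most of its UMIs in macrophages in 6 of the 7 mice. In macrophages Tnf stood at 1647 and 1020 CPM in WT 1 and WT 2, 222 and 236 CPM in the caerulein mice, and 1021, 785 and 903 CPM in i4F 1, i4F 2 and i4F 3. The caerulein mice lay far below both other groups, which overlapped each other. Macrophages gave 73.8 and 85.8% of all Tnf UMIs of the WT mice, 79.1 and 83.0% of the caerulein mice, and 87.1 and 88.1% of i4F 1 and i4F 2. In i4F 3 the share was 34.6%, and 51.0% came from other immune clusters. These were Macrophages_2 (dendritic genes) in WT mice and Macrophages_2 (neutrophil genes) and Macrophages_3 in i4F mice. In caerulein mice they were Macrophages_3 (neutrophil genes) and the cluster named B lymphocytes. They hold different cell types in each condition, so that their levels do not compare one population. Per UMI of their own those other immune clusters stood at 127 and 57.6 CPM in WT, 202 and 206 CPM in caerulein and 754, 523 and 607 CPM in i4F mice, near the macrophage level in caerulein mice. Over the whole library Tnf stood at 37.3 and 58.0 CPM in WT mice, 94.7 and 85.2 CPM in caerulein mice and 192, 174 and 81.9 CPM in i4F mice, while macrophages were 1.04 and 6.61% of the cells in WT, 46.2 and 39.1% in caerulein, and 29.8, 33.3 and 2.4% in i4F mice. Caerulein mice had more Tnf than WT mice over the whole library and less per macrophage UMI.

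Tnfsf9 (4-1BBL), the ligand of the T cell costimulatory receptor 4-1BB, was shared between macrophages and stellate cells. In macrophages its level was 615 and 325 CPM in WT, 461 and 260 CPM in caerulein and 947, 420 and 413 CPM in i4F mice, and the groups overlapped. In stellate cells, the fibroblast-like cells of the pancreas, Tnfsf9 stood at 138 and 146 CPM in WT, 49.3 and 30.8 CPM in caerulein, and 137, 97.7 and 87.3 CPM in i4F mice. Stellate cells gave 58.8 and 68.2% of the Tnfsf9 UMIs in WT mice, 10.5 and 12.5% in caerulein and 36.7, 39.6 and 37.3% in i4F mice.

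Tnfsf12 (TWEAK) was broadly expressed and came mainly from stellate cells (38.9 to 70.6% of its UMIs per mouse). Its stellate level was 83.7 and 214 CPM in WT, 69.8 and 31.8 CPM in caerulein and 35.6, 34.3 and 130 CPM in i4F mice, and i4F 3 lay between the WT mice. In smooth muscle clusters Tnfsf12 stood at 155 and 96.2 CPM in caerulein and 75.6, 87.1 and 107 CPM in i4F mice. Its exons overlap the readthrough gene Tnfsfm13, so that part of its count is uncertain. Tnfsf10 (TRAIL), a death ligand, was endothelial in WT mice, where endothelial cells gave 90.1 and 91.7% of its UMIs. Its endothelial level was 324 and 277 CPM in WT, 69.6 and 108 CPM in caerulein and 22.7, 29.6 and 107 CPM in i4F mice, and all 5 treated mice lay below both WT mice. The 6 lymphatic markers summed to 92.1 and 86.1 CPM in WT endothelial cells, where a separate cluster is named Lymph_nodes, 1059 and 882 CPM in caerulein and 1475, 700 and 2087 CPM in i4F endothelial cells, with 5 or 6 above 0. The 10 endothelial markers summed to 28954 and 31734 CPM in WT and 17406 to 23520 CPM in the treated mice, and the part of either in the level of Tnfsf10 was not tested. Tnfsf13b (BAFF), a B cell survival factor, stood at 34.5 and 24.5 CPM in WT stellate cells, 6.31 and 9.32 CPM in caerulein and 5.47, 8.12 and 26.0 CPM in i4F stellate cells.

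Tnfsf8 (CD30L) reached 87.6, 66.1 and 75.8 CPM in the NK/T cells of the i4F mice and 10.9 and 64.2 CPM in WT. The WT class held 182693 and 233648 UMIs of all genes, so that these WT levels rest on few UMIs. Tnfsf14 (LIGHT) stood at 16.8, 17.9 and 20.6 CPM in i4F macrophages, 11.2 and 8.58 CPM in caerulein and 0 and 7.95 CPM in WT macrophages. In the neutrophil-led cluster Macrophages_2 of i4F 1 and i4F 2 it was 73.7 and 40.9 CPM, and in Macrophages_3 of the caerulein mice 66.5 and 57.6 CPM. That caerulein cluster held 225561 and 34732 UMIs of all genes, so that its Tnfsf14 levels rest on few UMIs. Tnfsf11 (RANKL) stood at 10.9 and 124 CPM in WT and 56.7, 9.91 and 16.9 CPM in i4F NK/T cells, and the groups overlapped. Tnfsf15 (TL1A), the ligand of DR3, was 4.87 and 0.657 CPM in WT, 0.573 and 1.07 CPM in caerulein and 2.35, 0.734 and 4.45 CPM in i4F stellate cells. Tnfsf18 (GITRL) was 0.554, 0.259 and 0.742 CPM in i4F stellate cells. Tnfsf4 (OX40L) was 30.9, 9.15 and 4.82 CPM in cluster Macrophages_3 of the i4F mice. Tnfsf13 (27 UMIs) and the receptor Tnfrsf14 (99 UMIs) had fewer than 20 UMIs in each cell class of each condition, counting the mice of a condition together. The exons of Tnfsf13 overlap Tnfsfm13 on the same strand, as those of Tnfsf12 do, so that its low count cannot be read as low expression. Tnfsf13os had 611 UMIs. It overlaps Tnfsf13 on the other strand. The exons of Tnfrsf18, Tnfrsf23, Tnfrsf26 and Tnfsf9 also overlap a gene of the other strand, and whether this touches their counts was not tested.

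**Figure D1:**
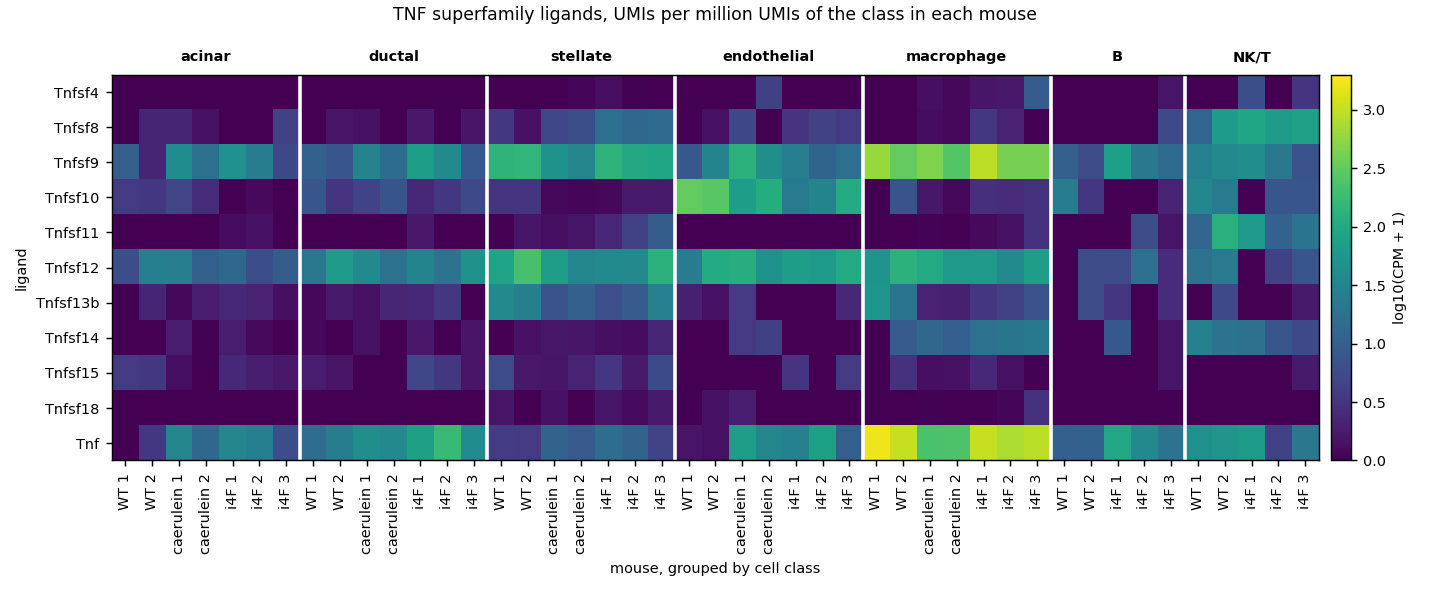
Level of the TNF superfamily ligands in each mouse (columns, grouped by cell class) as log10(CPM + 1), in colour. Tnf and Tnfsf9 are brightest in macrophages, Tnfsf10 in endothelial cells and Tnfsf12 in stellate, endothelial and macrophage cells.

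Among the receptors, Tnfrsf1a (TNFR1), the death-domain receptor of TNF, was found in all classes, and no comparison with all 7 mice called it. In endothelial cells it stood at 300 and 301 CPM in WT, 276 and 321 CPM in caerulein and 240, 254 and 273 CPM in i4F mice. In stellate cells it was 236 and 244 CPM in WT, 265 and 290 CPM in caerulein and 189, 238 and 286 CPM in i4F mice. In smooth muscle clusters of the i4F mice it was 292, 417 and 208 CPM. Tnfrsf1b (TNFR2), which lacks a death domain, was highest in NK/T cells and macrophages in WT mice. In the other immune clusters of i4F 1, i4F 2 and i4F 3 it stood at 311, 315 and 95.9 CPM. In NK/T cells it stood at 153 and 81.3 CPM in WT and 165, 82.6 and 57.4 CPM in i4F mice. In macrophages it stood at 103 and 66.6 CPM in WT, 87.7 and 83.6 CPM in caerulein and 241, 257 and 154 CPM in i4F mice, and each i4F mouse lay above each other mouse.

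Tnfrsf12a (Fn14) had the most UMIs of the receptors and was a ductal transcript in WT mice, where ductal cells gave 88.4 and 70.6% of its UMIs. Its ductal level was 1748 and 1263 CPM in WT, 649 and 684 CPM in caerulein and 980, 1530 and 1961 CPM in i4F mice. In acinar cells it stood at 116 and 50.2 CPM in WT, 305 and 325 CPM in caerulein and 332, 262 and 98.4 CPM in i4F mice, with i4F 3 in the range of the WT mice. The 12 listed ductal markers moved with it in these acinar cells, with 11 or 12 above 0 and summed levels of 8703 and 6688 CPM in WT, 54927 and 60039 CPM in caerulein and 23265, 13986 and 7623 CPM in i4F mice, and their part in the acinar level of Tnfrsf12a was not tested. In stellate cells it was 141 and 176 CPM in WT, 148 and 123 CPM in caerulein and 344, 331 and 218 CPM in i4F mice. Stellate cells gave 82.1 and 72.4% of the Tnfrsf12a UMIs in i4F 1 and i4F 2. Its level over these whole libraries was 300 and 280 CPM, little below the stellate level.

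Tnfrsf18 (GITR) stood at 339 and 424 CPM in WT and 582, 489 and 297 CPM in i4F NK/T cells. Tnfrsf4 (OX40) was 49.3 and 492 CPM in WT and 340, 311 and 348 CPM in i4F NK/T cells, so that the WT mice enclosed the i4F mice. Tnfrsf9 (4-1BB) was 126 and 81.3 CPM in WT and 263, 135 and 81.7 CPM in i4F NK/T cells. Tnfrsf25 (DR3) was 115 and 51.4 CPM in WT and 20.6, 33.0 and 33.1 CPM in i4F NK/T cells. Tnfrsf13c (BAFF receptor) was 236 and 138 CPM in WT B cells and 128, 119 and 184 CPM in i4F B cells. Tnfrsf13b (TACI) was 120 and 157 CPM in WT and 67.6, 29.7 and 94.1 CPM in i4F B cells. Macrophages gave 83.7 and 84.4% of the Tnfrsf13b UMIs of the caerulein mice and 71.3 and 79.6% of those of i4F 1 and i4F 2. NK/T cells of caerulein mice formed no cluster of their own, and the caerulein cluster named B lymphocytes held few B cell markers, so that these classes were not compared there.

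Tnfrsf10b (the death receptor of TRAIL) was highest in endothelial cells, at 125 and 103 CPM in WT, 64.6 and 88.9 CPM in caerulein and 93.0, 111 and 135 CPM in i4F mice. Tnfrsf19 (TROY) was ductal in WT mice, and in i4F 1 and i4F 2 stellate cells gave 96.7 and 96.2% of its UMIs. Its ductal level was 67.1 and 49.0 CPM in WT, 15.3 and 29.5 CPM in caerulein and 11, 4.93 and 28.4 CPM in i4F mice, all treated mice below WT. Tnfrsf11a (RANK) stood at 17.9 to 42.7 CPM in macrophages. Tnfrsf11b was highest in mesothelial clusters, at 172 and 93.8 CPM in WT and 125 and 169 CPM in caerulein mice. In i4F mice, without a mesothelial cluster, it was highest in stellate cells, as given below. Tnfrsf21 (DR6) stood at 14.4 to 27.9 CPM in macrophages and at 37.8, 87.1 and 88.1 CPM in the smooth muscle clusters of the i4F mice. Among classes with at least 20 UMIs, the TRAIL decoy Tnfrsf22 had its highest level in endothelial cells of WT and i4F mice. It stood there at 9.54 and 11 CPM in WT and 6.81, 12.2 and 14.3 CPM in i4F mice. Stellate cells held more of its UMIs in i4F mice (113, against 21 in endothelial cells). In caerulein mice macrophages and stellate cells held 27 UMIs each. Tnfrsf23 was highest in the neutrophil-led cluster Macrophages_2 of i4F 1 and i4F 2 (255 and 110 CPM). Tnfrsf26 was 6.20 and 6.09 CPM in WT endothelial cells, and Tnfrsf8 (CD30) was 1.98, 7.16 and 0 CPM in i4F acinar cells.

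**Figure D2:**
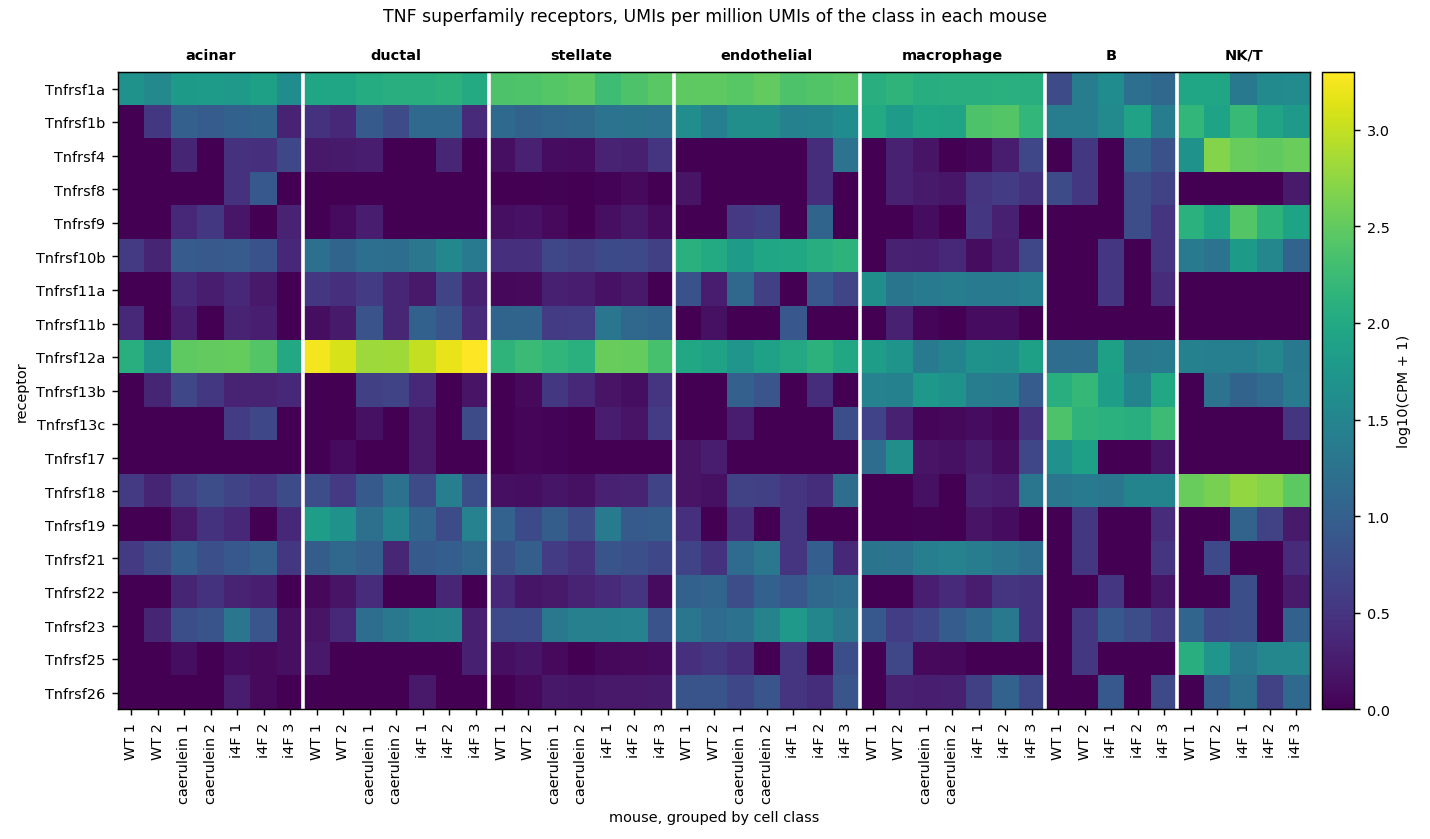
Level of the TNF superfamily receptors in each mouse (columns, grouped by cell class) as log10(CPM + 1), in colour. Tnfrsf12a is brightest in ductal cells, Tnfrsf1a is present in all classes, and Tnfrsf4, Tnfrsf9, Tnfrsf18 and Tnfrsf25 are brightest in NK/T cells.

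**Figure D3:**
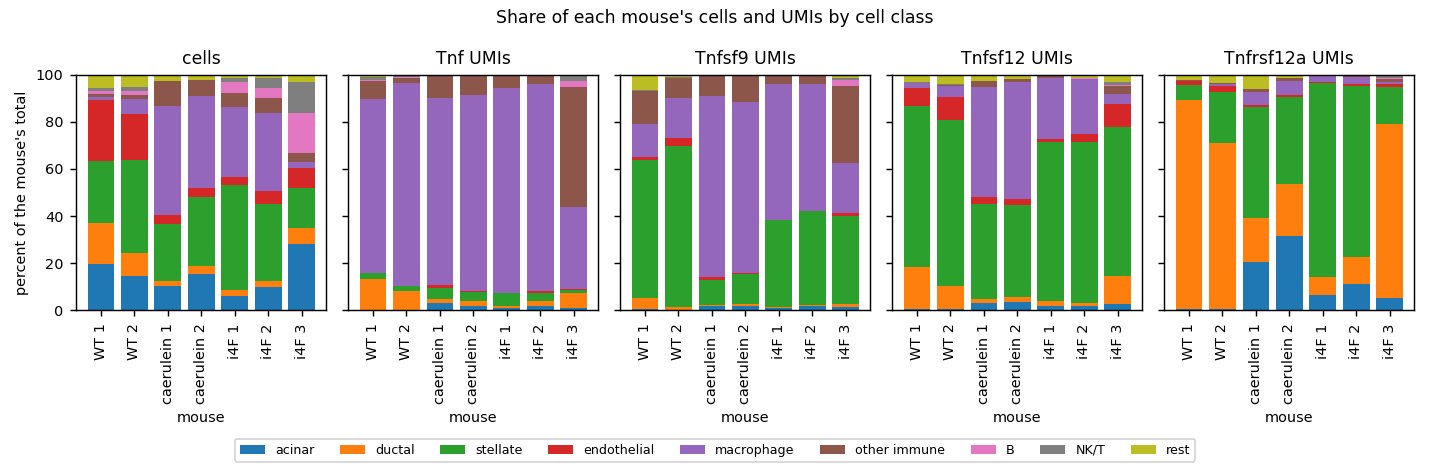
Stacked bars give for each mouse the percent of its cells (left) and of its UMIs of 4 members (right) by cell class, where rest stands for the remaining clusters. Macrophages give most Tnf UMIs in each mouse except i4F 3, and the main source of Tnfrsf12a is ductal in WT mice and i4F 3 and stellate in i4F 1 and i4F 2.

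In stellate cells, the comparison of i4F with WT mice asks which members differ in mice that carry the inducible factors, of which i4F 3 showed Pou5f1 and Sox2 counts no higher than those of the other groups. The class was mostly made of clusters named Quiescent in WT mice (1024 of 1138 and 2346 of 2507 cells) and wholly of clusters named Activated in i4F and caerulein mice, so that the treatment and the quiescent or activated cluster cannot be told apart in any stellate comparison with WT. Of 33 members, 20 passed the filter on low counts, and 6 of these were higher and 0 lower in i4F mice with edgeR's quasi-likelihood test (Benjamini-Hochberg adjusted over all genes), where 12% of all 14818 genes tested were higher and 8.58% lower. The median log2 fold of the 20 members was 0.91, and that of all genes 0.02. Tnf stood at 2.81 and 2.63 CPM in WT and 14.3, 10.1 and 3.71 CPM in i4F mice (log2 fold 1.99 ± 0.55 SE, edgeR adjusted p = 0.045). Tnfsf8 stood at 2.44 and 0.438 CPM in WT and 15.2, 11.5 and 13.4 CPM in i4F mice, all 3 above WT (3.54 ± 0.56, adjusted p = 0.0184). Tnfrsf23, a decoy receptor, stood at 4.31 and 4.49 CPM in WT and 27.3, 27.9 and 5.94 CPM in i4F mice (2.39 ± 0.62, adjusted p = 0.0399). The other 3 were Tnfrsf12a (1.06 ± 0.28), Tnfrsf10b (1.28 ± 0.31) and Tnfrsf1b (0.76 ± 0.17), with edgeR adjusted p-values of 0.0417, 0.035 and 0.0296. In Tnf, Tnfrsf23 and Tnfrsf12a, i4F 3 was the i4F mouse nearest to WT. edgeR called none of the 20 with the library series as a term, or in a fit of these 2 groups alone. Leaving out WT 1, WT 2, caerulein 1, caerulein 2, i4F 1 or i4F 2 left 0 calls each.

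Without i4F 3, 9 members were higher and 3 lower in i4F stellate cells, where 23.9% of all genes were higher and 23.8% lower. The 6 above were among the 9, and Tnfrsf18, Tnfrsf26 and Tnfsf11 were added, while Tnfsf10 fell by 2.27, Tnfsf12 by 2.00 and Tnfsf13b by 1.98 on the log2 scale. i4F 3 took 1167 of its 1280 stellate cells from cluster Activated_2, which holds mesothelial genes, and i4F 1 took 144 of 4393. In cells of cluster Activated_1 alone, i4F 3 had 8.89 CPM of Tnf, 18.8 CPM of Tnfrsf23 and 6.92 CPM of Tnfsf13b, near the levels of i4F 1 and i4F 2, in 113 cells.

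Caerulein and WT stellate cells differed in 4 members, 1 higher and 3 lower, where 9.99% of all genes were higher and 7.1% lower. Tnfsf9 fell by 1.66 ± 0.34 on the log2 scale (edgeR adjusted p = 0.0262). Tnfrsf11b stood at 10.5 and 10.4 CPM in WT and 2.72 and 2.93 CPM in caerulein mice (-1.73 ± 0.33, adjusted p = 0.0229). Within WT stellate cells Tnfrsf11b was 37.1 and 41.6 CPM in cluster Quiescent_2. Tnfsf10 stood at 2.25 and 2.19 CPM in WT and 0.179 and 0.133 CPM in caerulein mice (-3.51 ± 0.82, adjusted p = 0.0349). It had 137 and 46 UMIs in the whole caerulein libraries, so that its stellate level there rests on few UMIs. Tnfrsf23 stood at 19.96 and 26.5 CPM in caerulein mice and rose by 2.53 ± 0.65 (adjusted p = 0.0426). Without i4F 3, whose spread enters the shared estimate, 6 members were higher and 5 lower, against 19.3% and 20.4% of all genes. Leaving out either WT or either caerulein mouse left 0 calls, as did the library series as a term, and leaving out i4F 2 left 2. The 11 were the 4 above with Tnf, Tnfrsf10b, Tnfrsf11a, Tnfrsf13b and Tnfsf8 higher and Tnfrsf21 and Tnfsf13b lower. Tnf, Tnfrsf11a and Tnfrsf13b are also macrophage transcripts in these mice. In stellate cells C1qa, C1qb, C1qc and Lyz2 (chosen after values were seen) summed to 8.99 and 33.6 CPM in WT, 1344 and 862 CPM in caerulein and 364, 244 and 182 CPM in i4F mice. The 17 macrophage or monocyte markers summed to 1563 and 2676 CPM in WT, 4090 and 3752 CPM in caerulein and 4022, 5623 and 4112 CPM in i4F stellate cells, with 15 to 17 above 0, and their part in these results was not tested.

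Set directly against each other, i4F and caerulein stellate cells differed in 1 member of 20, Tnfrsf11b, where 0.304% of all genes were higher and 0.155% lower in i4F mice. Tnfrsf11b stood at 19.0, 12.2 and 10.6 CPM in i4F mice, all above the caerulein mice (2.32 ± 0.31, edgeR adjusted p = 0.049). The call was lost when any 1 of the other 6 mice was left out and with the library series as a term, where 6 of 20 members and 8.29% of all genes had an unadjusted p under 0.05. In clusters led by neither smooth muscle nor mesothelial genes it was 16.9, 10.3 and 14.8 CPM in i4F mice. Without i4F 3, 3 members (Tnfrsf11b, Tnfrsf12a and Tnfsf9) were higher and 1 (Tnfrsf13b) lower in i4F mice, where 5.58% and 5.92% of all genes were.

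**Figure D4:**
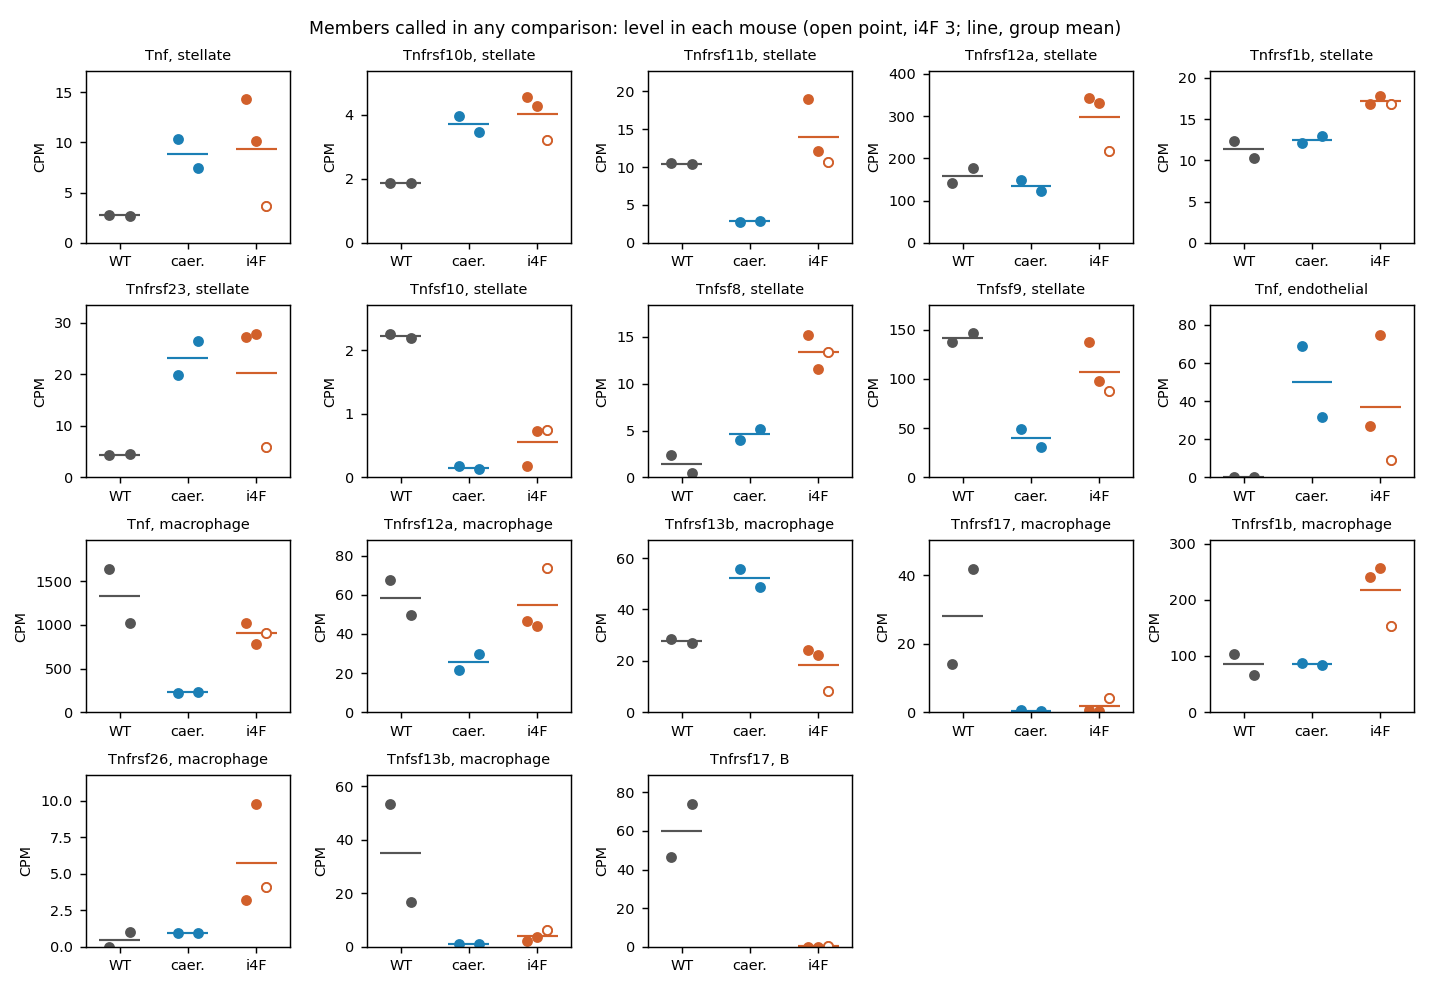
Level in CPM (vertical axis) of each member called in a comparison of conditions, in its cell class, with 1 point per mouse, a line at the group mean and an open point for i4F 3 (caer., caerulein). In stellate cells Tnfsf8 and Tnfrsf1b of all 3 i4F mice lie above the WT mice, while the open point lies near WT for Tnf and Tnfrsf23.

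In acinar and ductal cells no member was called with all 7 mice by edgeR, where 0.0808% of 11134 genes in acinar and 0.00861% of 11619 in ductal cells were called between i4F and WT mice. Of the 10 acinar and 13 ductal members tested, 2 and 8 had an unadjusted p under 0.05, as did 25.1% and 17.4% of all genes, and DESeq2 called 1 and 2, against 8.01% and 3.21% of all genes. For caerulein against WT, 0.0359% of all genes were called in acinar and 3.53% in ductal cells, with 2 and 4 members under an unadjusted p of 0.05 (21.9% and 30.7% of all genes), and DESeq2 called 0 and 1 (8.15% and 9.8%). Between i4F and caerulein mice edgeR called 0 members in either class (0.126% and 0.387% of all genes), with 0 and 1 under an unadjusted p of 0.05 (18.8% and 16.9%), and DESeq2 called 0 and 1 (5.42% and 2.2%).

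Without i4F 3, 5 members were higher and 0 lower in i4F acinar cells (17.3% and 15.4% of all genes). Tnf rose by 4.09 ± 0.97, from 0 and 2.45 CPM in WT to 30.6 and 25.9 CPM in i4F 1 and i4F 2 (adjusted p = 0.0104, edgeR). Tnfrsf12a rose by 1.49 ± 0.35, beside the ductal markers of these cells given above, and Tnfrsf1b, Tnfrsf23 and Tnfsf9 were the other 3. Tnfrsf12a and Tnf also rose in caerulein acinar cells in that fit, by 1.33 ± 0.35 and 3.55 ± 1.02, so that 2 of 10 members were higher there and 0 lower, against 8.36% and 11% of all genes. Only 0 and 2 acinar cells of WT 1 and WT 2 held a Tnf UMI, so that the Tnf folds of both treatments depend on the prior count. In ductal cells without i4F 3, 7 members were higher and 1 lower in i4F mice (13.7% and 12.8% of all genes). Tnfrsf23 rose by 5.20 ± 0.45, from 0.506 and 1.43 CPM in WT to 30.2 and 30.8 CPM, while i4F 3 had 0.963 CPM. Tnfrsf11b, Tnfrsf1b, Tnfsf9, Tnf, Tnfrsf10b and Tnfrsf1a were the others that rose, and Tnfrsf19 fell by 2.54. C1qa, C1qb, C1qc and Lyz2 together moved with them in ductal cells, from 1.85 and 47.0 CPM in WT to 868 and 428 CPM in i4F 1 and i4F 2 and 1341 and 1026 CPM in caerulein mice. Of the ductal cells with a Tnfsf9 UMI, 23 of 26 and 7 of 13 held one of these genes in i4F 1 and i4F 2, against 58.0% and 29.9% of all ductal cells, and their part in these results was not tested. These genes were chosen after values were seen. The full list of macrophage or monocyte markers is not given for ductal cells, where 1 of its genes is among the WT leading genes. In caerulein ductal cells Tnfrsf12a fell by 1.00 and Tnfrsf19 by 1.31 on the log2 scale, and 4 members (Tnfrsf23, Tnfrsf11b, Tnfrsf1b and Tnfsf9) rose, where 16.1% of all genes were higher and 16% lower. Between i4F and caerulein mice edgeR called 0 members in acinar cells (13% and 9.44% of all genes) and 0 in ductal cells (1.13% and 2.11%) without i4F 3, with 1 and 5 under an unadjusted p of 0.05 (36.4% and 21.2%).

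**Figure D5:**
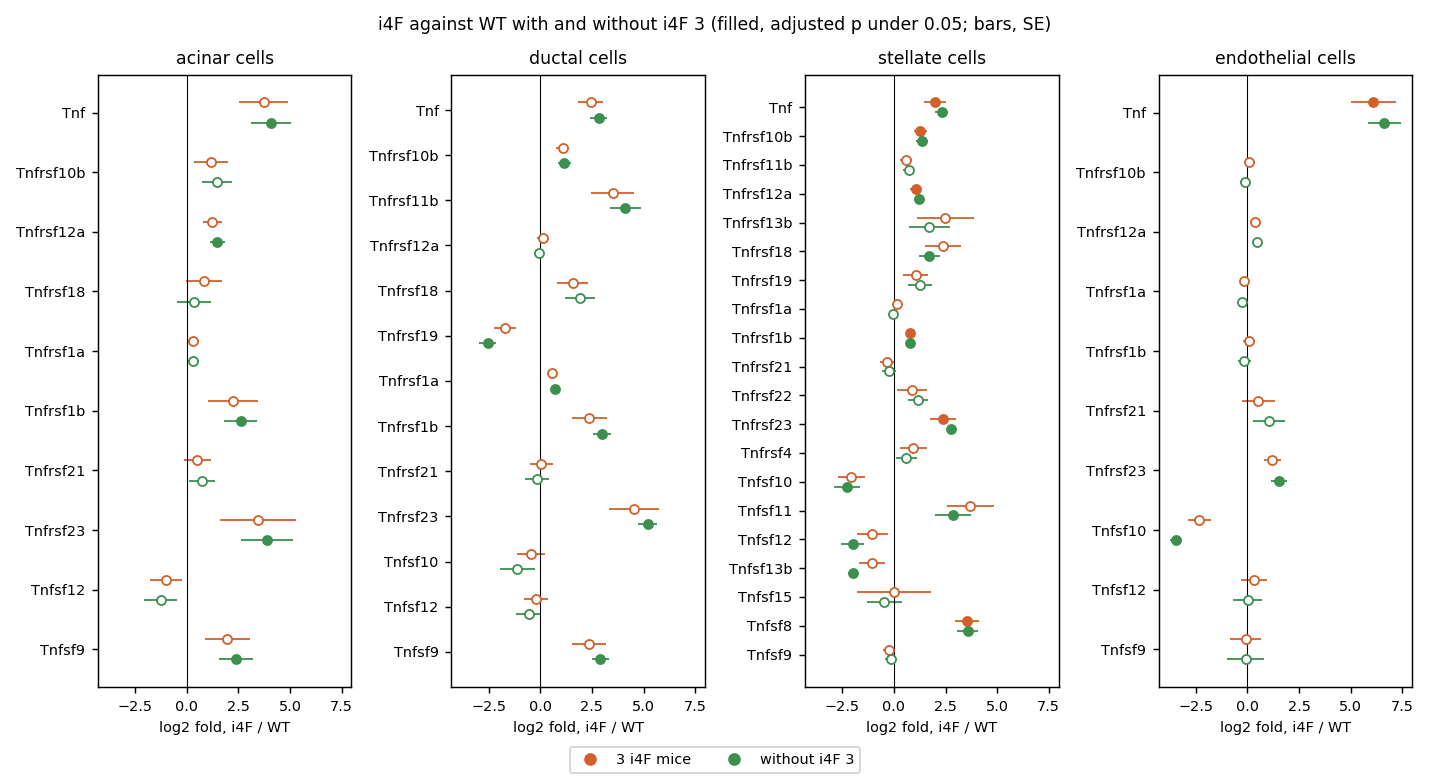
Log2 fold of i4F over WT mice (horizontal axis, ± SE) for each member tested in both fits, with 3 i4F mice (orange) and without i4F 3 (green), where filled points have an edgeR adjusted p under 0.05. In acinar and ductal cells no orange point is filled, against 5 and 8 green ones.

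The difference between the acinar and the stellate effect was tested in one fit. The caerulein effect on Tnfsf9 was higher in acinar than in stellate cells by 3.67 ± 0.86 on the log2 scale (edgeR adjusted p = 0.0333), where 2.82% of 14648 genes were higher and 3.41% lower in acinar cells. Tnfsf9 stood at 9.12 and 1.22 CPM in WT acinar cells and 39.7 and 15.7 CPM in caerulein acinar cells, and fell in stellate cells as given above. C1qa, C1qb, C1qc and Lyz2 together moved with it in acinar cells, from 20.8 and 89.3 CPM in WT to 2191 and 1187 CPM in caerulein mice. Of the caerulein acinar cells with a Tnfsf9 UMI, 84 of 94 and 18 of 23 held one of these 4 macrophage genes, against 50.6% and 19.7% of all acinar cells, and their part in the result was not tested. It rests on few acinar UMIs in WT mice, and in cells with at least 500 genes the adjusted p was 0.0566. It was not called without WT 1, WT 2, caerulein 1, caerulein 2 or i4F 2. For the i4F effect edgeR called 0 of 21 members (1.73% and 1.91% of all genes), with 1 under an unadjusted p of 0.05 (24.6%), and DESeq2 called 0 (8.65%). Without i4F 3, Tnfsf9 was called there too (2.73 ± 0.52, edgeR adjusted p = 0.00069, 14.8% of all genes higher in acinar cells and 11.3% lower). The 4 macrophage genes stood at 813 and 423 CPM in acinar cells of i4F 1 and i4F 2, and 56 of 67 and 29 of 39 of the cells with a Tnfsf9 UMI held one, against 52.7% and 42.4% of all, and their part was not tested there either. The caerulein difference then held 5 members higher in acinar cells and 0 lower (11.5% and 9.84% of all genes), namely Tnfsf9, Tnfsf10, Tnfsf12, Tnfrsf12a and Tnfrsf21.

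In endothelial cells, Tnf was the member called in both treatments, 1 of 10 tested. It stood at 0.477 and 0.406 CPM in WT, 68.8 and 31.7 CPM in caerulein and 27.2, 74.8 and 9.11 CPM in i4F mice. Its log2 fold was 6.10 ± 1.08 in i4F (edgeR adjusted p = 0.0455, 0.699% of 8153 genes higher and 0.11% lower) and 6.74 ± 1.08 in caerulein mice (adjusted p = 0.0102, 3.54% higher and 0.564% lower). The WT level is 1 UMI per mouse, so that the fitted folds depend on the prior count. The i4F call was lost without any 1 of the other 6 mice, the caerulein call without WT 1 or caerulein 1, and both with the library series as a term. Macrophage transcripts moved with it: the 17 macrophage or monocyte markers summed to 1064 and 1424 CPM in WT, 16136 and 13125 CPM in caerulein and 2838, 2628 and 1907 CPM in i4F endothelial cells, with 14 to 17 markers above 0. Of the caerulein 1 endothelial cells with a Tnf UMI, 36 of 37 also held a UMI of C1qa, C1qb, C1qc or Lyz2 (genes chosen after values were seen), against 43.4% of all its endothelial cells. In caerulein 2 it was 5 of 7, against 14.1%. In i4F 1, i4F 2 and i4F 3 it was 6 of 11, 7 of 13 and 2 of 2, against 34.7%, 23.0% and 12.0%. In acinar cells of i4F 1 and i4F 2 it was 38 of 47 and 46 of 51, against 52.7% and 42.4%, and in stellate cells 207 of 262 and 91 of 129, against 59.6% and 40.4%. The part of macrophage RNA or of doublets in the Tnf of these classes was not tested. In ductal cells it was 2 of 47 and 7 of 56 in WT, 51 of 67 and 7 of 20 in caerulein and 32 of 49, 23 of 60 and 10 of 53 in i4F mice, against 1.33% and 7.25%, 57.8% and 20.2%, and 58.0%, 29.9% and 12.0% of all ductal cells. Cells with more UMIs are more likely to hold any gene. Cells were not matched for UMIs in these counts or in those for Tnfsf9 above.

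Tnfsf10 in endothelial cells was not called with all 7 mice (log2 fold -2.33 ± 0.55, edgeR adjusted p = 0.0882 in i4F, and -1.71 ± 0.62, adjusted p = 0.167 in caerulein mice). Without i4F 3 it was called in both (-3.46 ± 0.28 and -1.72 ± 0.24), and it was lower in i4F than in caerulein mice, with a log2 fold of -1.74 ± 0.30 (edgeR adjusted p = 0.043, 0.164% of all genes higher and 0.748% lower). In that fit Tnf and Tnfrsf23 were higher and Tnfsf10 lower in i4F mice (7.43% and 6.86% of all genes), and Tnf and Tnfrsf21 were higher and Tnfsf10 lower in caerulein mice (6.8% and 4.24%). With all 7 mice edgeR called 0 of 10 members between i4F and caerulein endothelial cells (0.601% of all genes), with 3 under an unadjusted p of 0.05 (10% of all genes), and DESeq2 called 1 (1.46%).

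In macrophages, Tnf fell by 2.43 ± 0.30 on the log2 scale in caerulein against WT mice (edgeR adjusted p = 0.00563). With it fell Tnfsf13b, by 4.63 ± 0.63, and Tnfrsf17 (BCMA, a plasma cell receptor), by 5.88 ± 0.71, so that 3 of 19 members were lower and 0 higher, against 5.3% and 4.15% of all 12272 genes. Tnfrsf17 had 46 UMIs in WT macrophages, and 15 and 2 in the whole caerulein and 16, 16 and 22 in the whole i4F libraries. Its fitted macrophage folds in both treatments thus rest on counts near 0 and depend on the prior count. Tnfsf13b stood at 53.3 and 16.9 CPM in WT and 1.10 and 0.975 CPM in caerulein macrophages. Caerulein macrophages came from 2 clusters that differed in Tnf, at 141 CPM in Macrophages_1 of both mice and 364 and 648 CPM in Macrophages_2, both below the WT mice. Between i4F and WT macrophages 1 member was higher and 2 lower (2.95% and 3.13% of all genes). Tnfrsf1b rose by 1.58 ± 0.34 (adjusted p = 0.0312), Tnfsf13b fell by 3.06 ± 0.57 (adjusted p = 0.021), and the log2 fold of Tnfrsf17 was -5.41 ± 0.69 (adjusted p = 0.00862, edgeR). With all clusters named macrophages, which add dendritic and neutrophil-led clusters, these 3 had adjusted p-values of 0.144, 0.156 and 0.139. The WT macrophages numbered 45 and 418 cells, and their dendritic cell markers summed to 679 and 899 CPM against 51.8 to 354 CPM in the other mice, whose part in the results was not tested. Without i4F 3, the same 3 members were called for i4F (5.97% of all genes higher and 5.65% lower), and for caerulein 4 were lower and 1 higher (6.84% and 5.48%), with Tnfrsf12a lower and Tnfrsf13b higher beside the 3 above. The count of 3 for i4F fell to 0 without WT 2 or i4F 1, to 1 without i4F 2 and to 0 with the library series as a term, and the count of 3 for caerulein fell to 0 without either caerulein mouse.

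Between i4F and caerulein macrophages 4 members were higher and 1 lower (4.88% and 2.1% of all genes). Tnf was higher by 2.01 ± 0.28 (edgeR adjusted p = 0.00704), Tnfrsf1b by 1.40 ± 0.31, Tnfrsf12a by 1.07 ± 0.25 and Tnfrsf26 by 2.74 ± 0.58. Tnfrsf13b, at 24.4, 22.3 and 8.23 CPM in i4F and 55.9 and 48.5 CPM in caerulein mice, was lower by 1.26 ± 0.30. Without i4F 1, i4F 2, caerulein 1 or caerulein 2 the count of 5 was 2, 1, 0 and 0, and it was 1 (Tnf) with all clusters named macrophages. With the library series as a term, edgeR called 0, with 4 of 19 under an unadjusted p of 0.05 (13.1% of all genes), and Tnf was 1.32 higher on the log2 scale (adjusted p = 0.245). Without i4F 3 the same 5 were called with Tnfrsf23 and Tnfrsf8 higher, where 7.15% of all genes were higher and 2.94% lower.

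In B cells, Tnfrsf17 was the 1 member of 7 called between i4F and WT mice, with a log2 fold of -6.90 ± 0.77 (edgeR adjusted p = 0.00501), where 0.122% of 4923 genes were higher and 0.325% lower. It stood at 46.3 and 73.9 CPM in WT and 0, 0 and 0.553 CPM in i4F mice. The fitted folds thus rest on counts at or near 0 and depend on the prior count. The plasma cells of the i4F mice formed a cluster of their own, and with that cluster kept Tnfrsf17 stood at 10.3, 42.2 and 8.38 CPM and was not called (-2.01, edgeR adjusted p = 0.652). The call was also lost without WT 2. Without i4F 3, where the i4F counts were all 0, the fitted log2 fold was -7.50 ± 1.08 (edgeR adjusted p = 0.0278, 0.711% of all genes higher and 0.686% lower). In NK/T cells edgeR called 0 of 9 members (1.51% of 3574 genes), with 2 under an unadjusted p of 0.05 (14.3%), and DESeq2 called 0 (2.8%). With the library series as a term, and with WT 2 left out, edgeR called 1 member each. Without i4F 3 edgeR called 0 there (1.05% of all genes higher and 2.07% lower), with 3 under an unadjusted p of 0.05 (17.3%).

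Genes around the receptors were read from lists. In i4F stellate cells, of 21 TNF receptor adaptors and death genes tested, 5 were higher and 1 lower than in WT, where 12% and 8.58% of all genes were. Ripk3, a kinase of necroptosis, rose by 3.98 (edgeR adjusted p = 0.0184), Casp8 by 1.01 and Mlkl, the effector of necroptosis, by 1.23. In caerulein stellate cells 4 were higher and 1 lower (9.99% and 7.1% of all genes), among them Casp8 (1.57) and Mlkl (1.31). Of 21 TNF and NF-κB target genes tested in stellate cells, 7 were higher in i4F and 6 in caerulein mice and 0 lower, with medians of 0.53 and 0.42 against 0.02 and -0.04 over all genes and the shares of all genes just given. Without i4F 3, the i4F stellate counts were 6 higher and 5 lower of 21 adaptors and 7 higher and 6 lower of 21 target genes (23.9% and 23.8% of all genes), with a median of -0.12 for the target genes. The caerulein stellate counts were then 5 higher and 6 lower of the adaptors and 7 higher and 2 lower of the target genes (19.3% and 20.4% of all genes). Cxcl5, a neutrophil chemokine, rose by 7.90 and 9.02, and Lif by 2.40 and 2.25. In caerulein macrophages 0 of 22 target genes were higher and 4 lower, among them Mmp13 (-5.01), Cxcl10 (-3.15) and Il6 (-2.35), with a median of -0.63, where 4.15% of all genes were higher and 5.3% lower. Against WT, i4F macrophages had 2 higher and 2 lower of these 22 (2.95% and 3.13% of all genes). Of the same 22, i4F macrophages had 7 higher and 0 lower than caerulein macrophages, with Il6 (3.20), Csf1 (1.77) and Mmp13 (2.22) among them (4.88% and 2.1% of all genes), and 10 higher and 0 lower without i4F 3 (7.15% and 2.94%). Of 14 NF-κB subunits and inhibitors, 4 were higher there, among them Nfkb1 (1.21), Tnip1 (1.57) and Nfkb2 (1.04), and 6 without i4F 3. In ductal cells of caerulein mice the target genes Vcam1 and Ccl20 rose by 4.33 and 4.68 (2 of 19, where 3.53% of all genes were called), and in endothelial cells 6 of 18 rose, among them Ptgs2 (6.49), Cxcl2 (6.11) and Ccl7 (5.88), where 3.54% of all genes were higher, beside the macrophage transcripts given above. Without i4F 3, the caerulein counts of target genes were 12 higher and 3 lower of 19 in ductal cells (16.1% and 16% of all genes), 11 higher and 1 lower of 18 in acinar cells (8.36% and 11%) and 7 higher and 1 lower of 18 in endothelial cells (6.8% and 4.24%). The i4F counts were then 13 higher and 1 lower of 19 in ductal cells (13.7% and 12.8%), 10 higher and 0 lower of 18 in acinar cells (17.3% and 15.4%) and 6 higher and 3 lower of 18 in endothelial cells (7.43% and 6.86%). Of the 14 NF-κB subunits and inhibitors, 7 were higher and 0 lower in acinar cells of either treatment in that fit. C1qa, C1qb, C1qc and Lyz2 together moved with these lists in acinar and ductal cells, at the levels given above, and their part in the list counts was not tested. Stellate cells of both treatments also held more of these 4 genes than WT stellate cells, at the levels given above. Their part in the stellate counts, among them those of Ripk3, Casp8 and Mlkl, was not tested. With all 7 mice 0 target genes were called in acinar cells of either treatment and 0 in i4F ductal cells. Of the 14 relatives with other symbols, 7 were tested in stellate cells. Eda, the ectodysplasin ligand, was the 1 called, falling by 2.32 in i4F and 1.55 in caerulein mice, beside the shares of all genes given above. Without i4F 3, 9 were tested, with 1 higher (Relt) and 4 lower (Eda, Cd40, Ngfr and Eda2r) in i4F and 1 higher (Ltbr) and 1 lower (Eda) in caerulein mice.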

How the data were processed

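Single-cell 3′ RNA libraries of 7 mice were used. According to the methods, the authors aligned reads to GRCm38 with Cell Ranger, corrected ambient RNA with SoupX and filtered cells. What was deposited are raw whole-number counts (UMIs), and whether these precede SoupX is not stated. All cells had at least 150 genes and a deposited percent of mitochondrial UMIs under 5. The authors' metadata gave mouse and cluster. Doublets were not called. Members and lists were chosen with earlier results of these data known.

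Counts were summed per mouse and class (at least 20 cells) and tested with the quasi-likelihood test of edgeR 4.0.16 in R 4.3.3 (TMM, filterByExpr, 3 groups in a fit, two-sided, Benjamini-Hochberg adjustment over all genes, threshold 0.05). Clusters with more markers of another class than of their own among the 10 leading genes were left out, as were clusters the authors named smooth muscle or mesothelium. Smooth muscle had no marker list, so the WT cluster of activated stellate cells, led by Acta2, Tagln and Myh11, stayed in, as did i4F cluster Acinar_2, which had no acinar marker among its leading genes. On simulated data for i4F against WT (200 changed genes), changes of log2 2 and log2 4 were recovered for 36% and 96% in acinar (11134 genes), 67% and 93% in ductal (11619), 73% and 100% in stellate (14818), 81% and 100% in endothelial (8153), 62% and 80% in macrophage (12272), 69% and 97% in B (4923) and 73% and 99% in NK/T cells (3574). Between 4 and 9 unchanged genes per class were called. The simulation gave unchanged genes the same mean in all mice and a spread taken from the trend over genes. A mouse unlike the rest of its group, such as i4F 3, was thus not simulated, and these shares do not give the recovery in the real fits. Values were named for members called or in 20 ligand and receptor pairs, with at least 20 UMIs in a cell class of a condition, its mice together. Values of single mice, of single clusters or of the other conditions can rest on fewer UMIs. Alternatives included fits of 2 groups, DESeq2 1.42.0, a fit with no filter, one without TMM, a replicate block, the library series, cells with at least 500 genes, other cluster choices and each mouse left out. Mice are the replicates.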

Additional observations from a re-analysis of the deposited data

Results flagged for a closer look

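The caerulein effect on Tnfsf9 differed between acinar and stellate cells by 3.67 on the log2 scale, which is a test of the difference itself. In the acinar cells the genes C1qa, C1qb, C1qc and Lyz2 together stood at 2191 and 1187 CPM in caerulein and 20.8 and 89.3 CPM in WT mice, and their part in the difference was not tested.

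Mesothelial and endocrine clusters, outside the compared classes, were searched for members higher in each mouse of a treatment than in each WT mouse. Members found this way are listed with no test, and members lying lower were not searched for. The share of all genes that pass this search is not given, so these members cannot be set against all genes. In mesothelial clusters Tnfrsf1a was at least 195 CPM in the caerulein mice and at most 188 CPM in the WT mice, and Tnfrsf1b was at least 27.1 CPM against at most 23.5 CPM. In endocrine clusters Tnfsf9 was at least 19.5 CPM in the i4F mice and at most 16.9 CPM in the WT mice. These rest on few UMIs: Tnfrsf1b had 4 in the mesothelial cells of caerulein 2 and 15 in those of WT 1, and Tnfsf9 had 3, 13 and 7 in the endocrine cells of i4F 1, i4F 2 and i4F 3.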

How the results depend on the processing

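Counts of members called are given here in the order acinar, ductal, stellate, endothelial and macrophage cells. For i4F against WT they were 0, 0, 6, 1 and 3, for caerulein against WT 0, 0, 4, 1 and 3, and for i4F against caerulein 0, 0, 1, 0 and 5. DESeq2 gave 1, 2, 7, 2 and 3 for i4F against WT, 1 in ductal, 8 in stellate and 2 in endothelial cells for caerulein against WT, and 1, 5 and 1 in ductal, stellate and endothelial cells for i4F against caerulein, where it called 8.01, 3.21, 26.7, 3.58 and 6.12% of all genes, then 9.8, 24.8 and 5.38%, and 2.2, 5.33 and 1.46%. With no filter the counts were 5, 7, 13, 4 and 7, then 3, 9, 10 and 5 outside macrophages, and 3, 2, 6, 1 and 11. Of all genes that fit called 8.34, 5.44, 16.3, 4.18 and 6.86%, then 6.26, 10.5, 14.3 and 5.74%, and 5.78, 3.5, 3.99, 1.96 and 7.12%, over 21111 to 30334 genes and 28 to 33 members. With only the 2 groups they were 0 in stellate, 0 in endothelial and 1 in macrophage cells for i4F against WT, 1, 6, 9 and 3 outside macrophages for caerulein against WT, and 0 in stellate cells for i4F against caerulein, where 0.757, 0.193 and 0.658% of all genes were called, then 23.9, 28.5, 38.8 and 8.31%, and 0.0244%. The replicate numbers did not pair the mice, since correlations of same-numbered mice were not all above 0.1, and a replicate block gave 5, 6, 11 and 2 for i4F against WT and 3, 6, 10 and 2 for caerulein against WT outside macrophages, and 3 in stellate cells for i4F against caerulein, with 29.6, 19.2, 43.9 and 9.92%, then 16.7, 23.5, 35.3 and 7.84%, and 5.96% of all genes called. With caerulein numbers crossed, chosen after seeing the data, the block gave 2, 7, 11 and 4 (20.2, 29.6, 41.8 and 11.8% of all genes). The library series as a term gave 0 in stellate, endothelial and macrophage cells and 1 in NK/T cells for i4F against WT, and 0 in stellate and endothelial cells for caerulein against WT. For i4F against caerulein, added after seeing the data, it gave 0 in stellate and 0 in macrophage cells. It was not run for the differences between acinar and stellate cells. The shares of all genes called with that term are not given here, so these counts cannot be set against all genes.

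The cluster choices below were also made after seeing the data. Stellate clusters led by neither smooth muscle nor mesothelial genes gave 10, 8 and 4 for the 3 comparisons (47.7, 37.8 and 8.78% of all genes). All clusters named macrophages gave 0 for i4F against WT and 1 for i4F against caerulein. The B cell count of 1 became 0 with plasma cells kept and 0 in cells with at least 500 genes. The difference of the i4F effect between acinar and stellate cells gave 1 with no filter and 1 without cluster Acinar_2, and that of the caerulein effect gave 3 without TMM, 2 with no filter, 0 in cells with at least 500 genes and 3 without Acinar_2. Outside the stellate choices, the shares of all genes called in these fits are not given, so the counts cannot be set against all genes.

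Leaving out each mouse in turn, counts for i4F against WT ranged from 0 to 5, 0 to 8, 0 to 12, 0 to 3 and 0 to 3, with 0 to 1 in B and 0 to 1 in NK/T cells. They ranged from 0 to 2, 0 to 6, 0 to 11, 0 to 3 and 0 to 5 for caerulein against WT, from 0 to 0, 0 to 0, 0 to 4, 0 to 1 and 0 to 7 for i4F against caerulein, and from 0 to 1 and 0 to 5 for the differences. The highest counts came without i4F 3, except in NK/T cells (without WT 2). The shares of all genes in the fits without i4F 3 are given above. Those for the other mice left out are not given, so these counts cannot be set against all genes. Of the single called genes, no value changed sign, 236 values under an alternative kept their call and 152 lost it, and the cause was not tested. Without TMM the median of all genes moved by 0.59 in caerulein and 0.18 in i4F acinar cells, -0.16 in i4F stellate cells and 0.29 in B cells on the log2 scale, and the share of calls that were higher went from 58.3 to 42.1% in i4F stellate, from 58.5 to 43.9% in caerulein stellate, from 86.4 to 74.5% and 86.3 to 72.5% in endothelial, from 48.5 to 37.9% in i4F macrophage and from 27.3 to 58.3% in B cells. Depth per mouse and class was 182693 to 1358254 UMIs in NK/T, 202274 to 1806705 in B, 281197 to 21870694 in macrophage and 767407 to 5893070 in acinar cells.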
